A study of Mus musculus with 18 samples.

Results

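Laminin, type IV collagen and Sparc were read on 14 cDNA clones of a mouse array that holds 15360 clones in all. The clones were taken as all those whose only gene symbol in the array annotation is Lama1 (1 clone), Lamb1 (4), Lamc1 (3), Col4a1 (2), Col4a2 (1) or Sparc (3), so that all 6 genes sought were measured. A basement membrane is a thin sheet of matrix beneath an epithelium. Its laminin network is assembled from trimers of an alpha, a beta and a gamma chain, and a second network is built from triple helices of type IV collagen. Laminin with the alpha1, beta1 and gamma1 chains, encoded by Lama1, Lamb1 and Lamc1, is the form of the early mouse embryo, and the collagen chains encoded by Col4a1 and Col4a2 make up the common form of type IV collagen. Sparc encodes a secreted calcium- and collagen-binding glycoprotein. Extraembryonic endoderm, above all the parietal layer that lays down Reichert's membrane, is known for making all of these in large amounts, and an endoderm layer with a basement membrane beneath it forms on the outside of embryoid bodies (EBs).

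The samples were EBs formed from IMT11 embryonic stem (ES) cells in hanging drops of 1000 cells, harvested on each of Days 1 to 4, either without LIF (named D1-LIF to D4-LIF) or in its presence (named D1+LIF to D4+LIF), and undifferentiated IMT11 ES cells (D0). LIF is a cytokine under which mouse ES cells keep self-renewing. All came from this 1 ES line, and the D0 cells were kept on gelatin in serum with LIF. Each of the 9 conditions was hybridised on 2 arrays against a pool of RNA, with the sample in Cy3 on 1 and in Cy5 on the other, which makes 18 arrays. Whether the pool held D0 RNA is given differently by the labels and by the methods.

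A deposited value is the ratio of the channels at a spot. All values below are log2 ratios averaged over the 2 spots of a clone and centred on the median of the slide, so that 0 marks the middle clone of that slide on that array. The direction of the ratio is not stated. Sample over pool is the likely reading, since the sample is named as the first channel, and every sign below rests on it: were all ratios pool over sample, all signs would turn. If only the Cy3 arrays ran the other way, the Cy3 values alone would turn, and that case is given beside the results. The clones lie on 2 slides per array, 6 of the 14 on slide 1 and 8 on slide 2. 10 of the 14 had a value on every array, and the other 4 (Lama1 BG065266, Lamb1 BG066709, Lamb1 BG066081 and Sparc BG065013) lacked only the D2-LIF value in Cy5. On slide 1 that array lacked 13442 of 15360 spots, and the D1+LIF array in Cy5 lacked 6632. The slide 1 values of these 2 arrays are centred on the remaining spots alone and are less sure than the others. All 14 entered the tests.

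The arrays differed in ways that touch every comparison with D0. On slide 1 the 8 EB arrays in Cy3 had SDs of 0.227 to 0.657 over the log2 ratios, against 2.32 on the D0 array, and on slide 2 they had 0.174 to 0.313, against 0.511. In Cy5 the EB arrays had SDs of 0.502 to 2.34 on slide 1 and 0.60 to 1.45 on slide 2, against 0.329 and 0.437 on the D0 array, which was the narrowest. The 2 arrays of a condition did not resemble each other, with a mean correlation across clones of -0.10 (-0.52 to 0.48), whereas arrays of different conditions averaged 0.33 in Cy3 and 0.63 in Cy5. Each dye is therefore described apart. Because the spread of an array scales every log2 ratio on it, a clone is also given by its percentile among all clones of its slide with a value. Values are ratios to the pool of RNA from whole EBs, so more cells of a type and more RNA per cell cannot be told apart, and no level of 1 gene can be set against that of another.

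The upstream sequences of 4 of the 6 genes (Lamb1, Col4a1, Col4a2 and Sparc) were found in RefSeq windows of the GRCm38.p6 build, from 250 bases before to 50 bases after the annotated start. Col4a1 and Col4a2 are shown because they lie head to head and their windows share 78 bases, printed in capitals, which are the same bases read from opposite strands. Sparc is shown because its clones were among the furthest below D0; there the capitals mark the 50 bases from the start on. All are written 5′ to 3′ on the strand of the gene.
Col4a1, chr8:11312777-11313076, minus strand: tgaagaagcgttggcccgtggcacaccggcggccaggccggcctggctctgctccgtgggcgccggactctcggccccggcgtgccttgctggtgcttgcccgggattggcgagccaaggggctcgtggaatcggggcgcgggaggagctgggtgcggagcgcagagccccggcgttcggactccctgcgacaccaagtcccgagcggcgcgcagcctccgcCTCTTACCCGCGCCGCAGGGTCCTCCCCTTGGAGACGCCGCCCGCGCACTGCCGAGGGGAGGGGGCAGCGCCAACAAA
Col4a2, chr8:11312555-11312854, plus strand: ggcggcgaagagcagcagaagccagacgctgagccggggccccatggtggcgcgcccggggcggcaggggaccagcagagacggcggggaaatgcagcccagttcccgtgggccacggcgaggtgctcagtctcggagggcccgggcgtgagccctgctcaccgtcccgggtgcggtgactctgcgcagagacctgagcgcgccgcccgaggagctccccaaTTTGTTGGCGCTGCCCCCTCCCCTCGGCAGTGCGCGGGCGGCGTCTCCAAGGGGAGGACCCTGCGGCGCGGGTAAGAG
Sparc, chr11:55420031-55420330, minus strand: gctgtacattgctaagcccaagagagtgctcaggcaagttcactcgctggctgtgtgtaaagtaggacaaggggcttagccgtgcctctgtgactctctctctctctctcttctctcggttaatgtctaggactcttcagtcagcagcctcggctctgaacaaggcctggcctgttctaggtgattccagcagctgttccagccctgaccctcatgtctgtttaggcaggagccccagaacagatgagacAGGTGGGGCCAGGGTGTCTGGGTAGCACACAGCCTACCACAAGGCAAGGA

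The windows differed in base composition. The collagen windows were 74.0% (Col4a1) and 73.7% (Col4a2) G and C, that of Lamb1 63.7% and that of Sparc 55.3%, where the middle of 32544 mouse promoter windows was 53.0%. 5 short motifs were searched on both strands: GATAA (read by GATA factors), CCAAT (the CCAAT box of NF-Y), TATAAA (the TATA box), GGGCGG (the GC box of Sp1) and TGACTCA (the AP-1 motif). None of the 4 windows held GATAA (25.3% of all windows did), TATAAA (13.6%) or TGACTCA (5.19%). CCAAT (37.4% of all windows) was in the windows of Lamb1, Col4a1 and Col4a2, and GGGCGG (35.9%) in the same 3, once in Col4a1, 2 times in Lamb1 and 3 times in Col4a2. The shared 78 bases held GGGCGG and no whole CCAAT. The CCAAT of the Col4a2 window straddles their edge, with its last base the first of the shared stretch. The Sparc window held none of the 5.

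Lama1, the alpha1 chain, was read by 1 clone on slide 1. In Cy3 its log2 ratio was 3.62 at D0 and then 0.14, -0.49, -0.33 and -0.36 at D1 to D4 without LIF. With LIF the Cy3 values were -0.14, -0.21, -0.16 and -0.21 at D1 to D4. All 8 EB arrays in Cy3 thus lay below the 1 D0 array, whose SD on slide 1 was 2.32 against 0.227 to 0.657 on the EB arrays. The share of all clones with such an order in 1 dye was not counted. In Cy5 the EBs without LIF had -0.86, 0.10 and -0.52 at D1, D3 and D4, the EBs with LIF had 0.11, -0.32, 0.11 and -0.63, and D0 had -0.16. The EBs lay on both sides of D0 in this dye, 4 of 7 arrays below it. The D0 value in Cy3 stood at percentile 90.8 of its slide.

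The 4 clones of Lamb1, the beta1 chain, did not behave alike. Lamb1 BG075439 was below D0 on all 16 EB arrays. Its Cy3 values were between -0.25 (D1-LIF) and 0.31 (D4-LIF) in EBs, against 0.93 at D0. Its Cy5 values were -1.27, -0.63, -0.56 and -1.27 at D1 to D4 without LIF and -1.53, -2.28, -1.08 and -2.58 with LIF, against -0.23 at D0. The clone Lamb1 BG072295, on the same slide, moved the other way: in EBs it spanned -0.20 to 0.16 in Cy3 and 0.01 to 0.79 in Cy5, against -0.40 and 0.09 at D0, and it was below D0 on 1 of 16 EB arrays. Both slide 1 clones of the gene were above D0 on all 8 EB arrays in Cy3, where D0 was at -2.24 for BG066709 and -1.08 for BG066081, and on both sides of it in Cy5 (4 of 7 arrays below). The duplicate spots of these 2 slide 1 clones differed by up to 2.57 and 1.26 on the log2 scale, more than the 0.35 and 0.43 of the slide 2 clones BG072295 and BG075439.

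Lamc1, the gamma1 chain, was read by 3 clones. Lamc1 BG072670 had Cy3 values of 0.77 at D0, then -0.70, -0.35, -0.22 and -0.06 at D1 to D4 without LIF and -0.18, -0.25, -0.42 and -0.24 with LIF. Its Cy5 values were -0.43 at D0, then -1.67, -0.68, -0.85 and -1.79 without LIF and -1.92, -2.62, -1.90 and -3.35 with LIF. The clone was thus below D0 on all 16 EB arrays and ranked low on its slide, at percentiles of 0.7 to 35.9 in Cy3 and 4.3 to 10.2 in Cy5, against 92.1 and 15.8 at D0. Lamc1 BG072624 was below D0 on 14 of 16 EB arrays, at -0.07 to 0.21 in Cy3 and -1.0 to -0.09 in Cy5 in EBs, against 0.47 and -0.24 at D0. Lamc1 BG066605 was above D0 in Cy3 on all 8 EB arrays and below it in Cy5 on 7 of 8, with its lowest Cy5 values at Day 1 (-2.53 without LIF, -1.73 with LIF, 0.09 at D0). Its order in Cy3 rests on 1 spot, since the D0 spots were at 0.53 and -1.53. By the first spot alone the EBs, at -0.12 to 0.30, lay below D0 in Cy3.

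**Figure D1:**
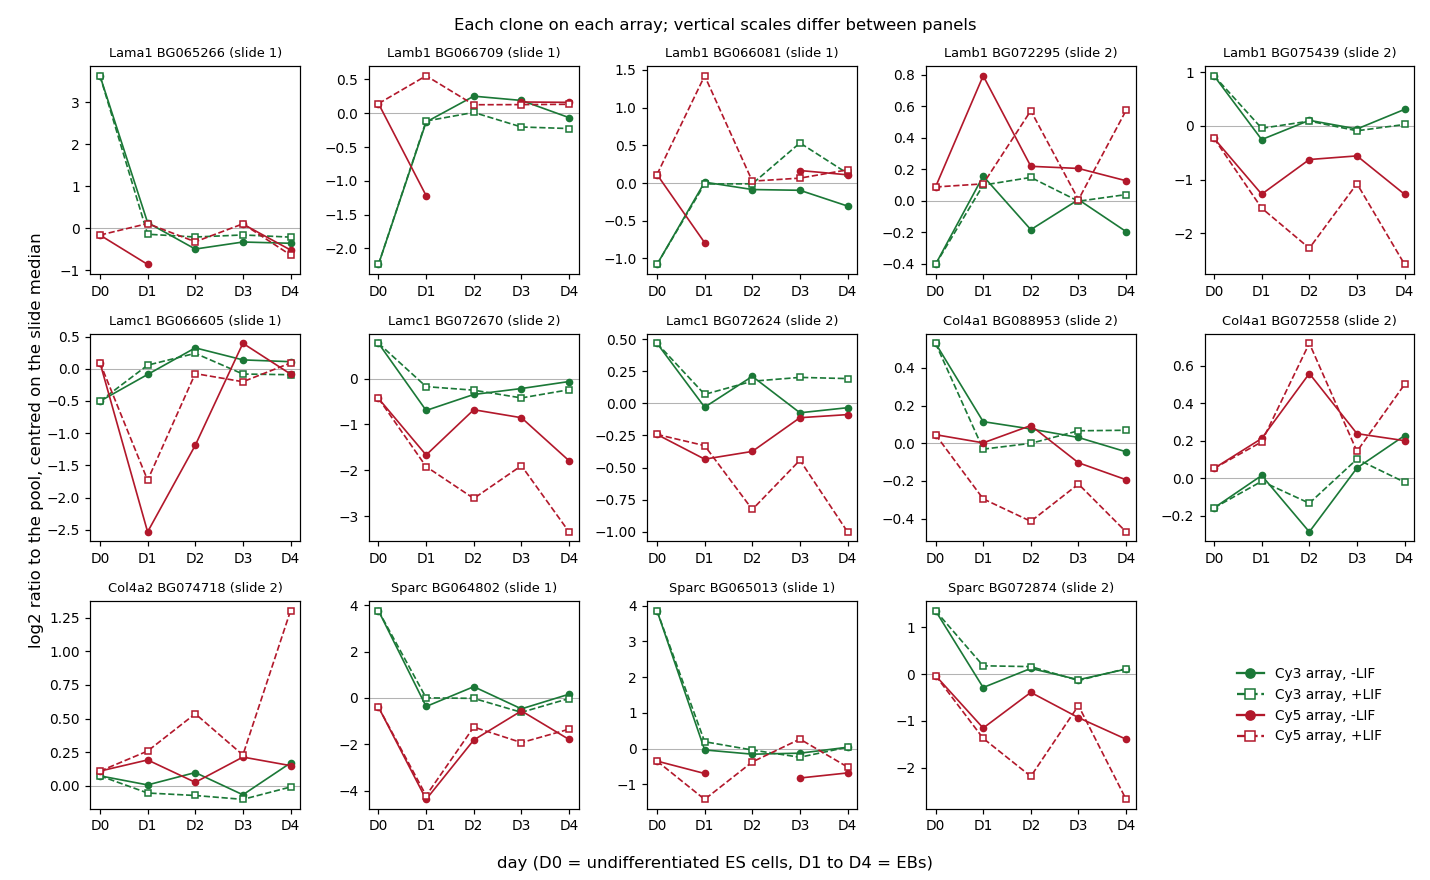
Log2 ratio to the pool, centred on the slide median (vertical axis, scales differ), of each of the 14 clones over D0 to D4 (horizontal axis); green is the Cy3 array and red the Cy5 array, filled circles EBs without LIF and open squares EBs with LIF, with 1 array per point. Sparc BG064802, Sparc BG072874, Lamc1 BG072670 and Lamb1 BG075439 lie below D0 on every EB array in both dyes, while Col4a1 BG072558 lies above D0 in Cy5.

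The 2 Col4a1 clones, both on slide 2, differed in direction. Col4a1 BG088953 was below D0 on 15 of 16 EB arrays by small amounts: EBs were at -0.05 to 0.11 in Cy3 and -0.47 to 0.09 in Cy5, against 0.53 and 0.05 at D0. Col4a1 BG072558 was above D0 on 15 of 16, with Cy3 values in EBs of -0.29 to 0.23, against -0.16 at D0. Its Cy5 values were 0.05 at D0, then 0.21, 0.56, 0.24 and 0.20 at D1 to D4 without LIF and 0.19, 0.72, 0.14 and 0.50 with LIF. All 8 EB arrays in that dye lay above the 1 D0 array, whose SD on slide 2 was 0.437 against 0.60 to 1.45 on the EB arrays. The clone of Col4a2, BG074718, stayed within -0.10 to 0.17 in Cy3 in EBs, against 0.08 at D0. In Cy5 it had 0.11 at D0, then 0.19, 0.03, 0.21 and 0.15 without LIF and 0.26, 0.54, 0.23 and 1.30 with LIF, so that 7 of 8 EB arrays were above D0 and D4+LIF was the highest. Over the 9 conditions, which share the pool, Col4a2 correlated with Col4a1 BG072558 at -0.03 in Cy3 and 0.46 in Cy5, and with Col4a1 BG088953 at 0.22 and -0.78.

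The 3 clones of Sparc lay mostly below D0. Sparc BG064802, on slide 1, had Cy3 values of 3.76 at D0, then -0.37, 0.49, -0.47 and 0.16 at D1 to D4 without LIF and 0.01, -0.02, -0.62 and -0.02 with LIF. In Cy5 it had -0.39 at D0, then -4.37, -1.81, -0.56 and -1.79 without LIF and -4.21, -1.25, -1.92 and -1.34 with LIF. It lay below D0 on all 16 EB arrays, and its lowest values were those of Day 1 in Cy5, with or without LIF. Sparc BG072874, on slide 2, had 1.35 at D0 in Cy3, then -0.29, 0.12, -0.12 and 0.11 without LIF and 0.18, 0.16, -0.14 and 0.12 with LIF. In Cy5 it had -0.03 at D0, then -1.15, -0.39, -0.93 and -1.39 without LIF and -1.37, -2.18, -0.67 and -2.67 with LIF. This clone too was below D0 on all 16 EB arrays. Sparc BG065013 was below D0 on 14 of 15, at -0.24 to 0.19 in EBs against 3.85 at D0 in Cy3, and at -1.42 to 0.26 in EBs against -0.35 at D0 in Cy5. The exception was D3+LIF, its highest value in Cy5.

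Across the 14 clones, 4 (Sparc BG064802, Sparc BG072874, Lamc1 BG072670 and Lamb1 BG075439) were below the D0 array of the same dye on every EB array, and none was above it on every one. Of all 15360 clones, 6.46% were below and 8.07% above on every EB array. By percentile, which does not use the spread of the array, 3 of the 14 kept this order on every EB array (Sparc BG072874, Lamc1 BG072670 and Lamb1 BG075439, all on slide 2), against 1.33% of all clones, and 0 had the opposite order, against 2.17%. Sparc BG064802 missed it on 1 array, D3-LIF in Cy5, where it was at percentile 19.3 against 12.9 at D0. Sparc BG065013 did not keep the order in Cy5, where 1 of 7 EB arrays had a lower percentile than D0. No count is a test: the 16 arrays are set against the same 2 D0 arrays, and clones of 1 gene share its RNA. If the Cy3 ratios ran the other way, no clone of the 14 would be below D0 on every array in both dyes.

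**Figure D2:**
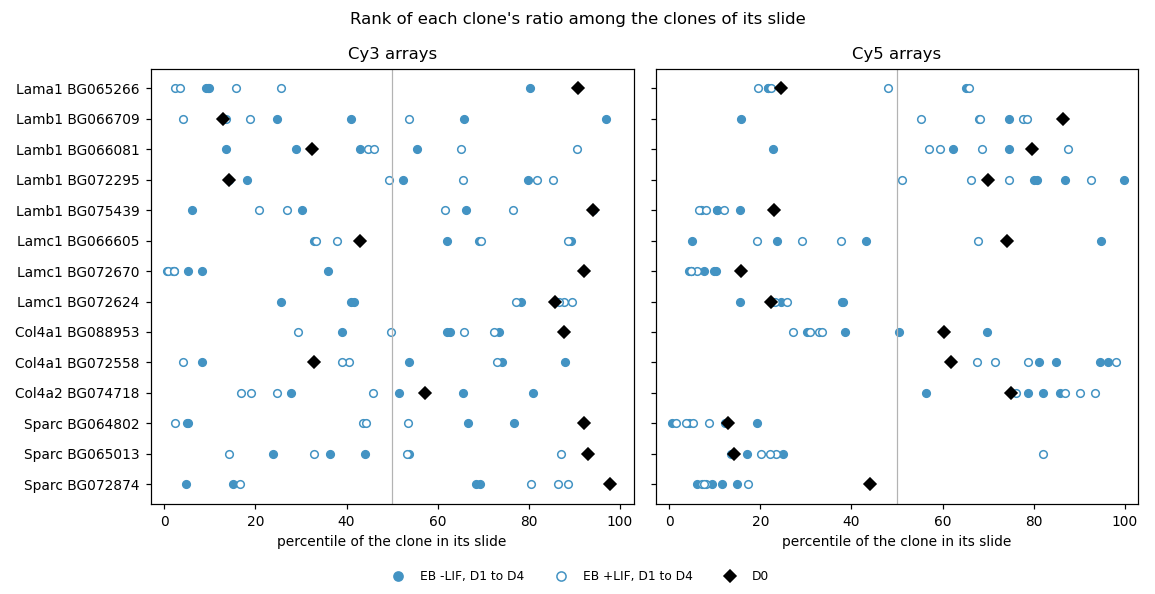
Percentile of each clone's log2 ratio among the clones of its slide (horizontal axis) on the Cy3 and Cy5 arrays; filled blue circles are EBs without LIF, open blue circles EBs with LIF (D1 to D4) and black diamonds D0. In Sparc BG072874, Lamc1 BG072670 and Lamb1 BG075439 every EB lies left of D0 in both dyes, whereas in Sparc BG065013 most EBs lie right of D0 in Cy5.

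To test these differences, limma was fitted to all 15360 clones with the 9 condition means and a dye term, with Benjamini-Hochberg adjustment of the p-values over all clones. No clone of the 14 passed an adjusted p of 0.05 in any of the 8 comparisons of an EB condition with D0, nor did any clone of the array (0%). Without adjustment, p was under 0.05 for 7 of the 14 clones at D1-LIF (21.3% of all clones), 2 at D2-LIF (7.42%), 3 at D3-LIF (18.4%) and 5 at D4-LIF (11.6%). With LIF the numbers were 6 at D1+LIF (20.1%), 7 at D2+LIF (17.7%), 2 at D3+LIF (21.0%) and 7 at D4+LIF (26.3%). The median log2 difference from D0 over the 14 clones was below 0 in all 8 conditions, from -0.73 (D1-LIF) to -0.22 (D2-LIF), where the median of all clones was between -0.01 and 0.04. This sign depended on the treatment of the data: without centring the median was -0.0485 at D4-LIF and 0.26 at D4+LIF, and on the Cy5 arrays alone it was 0.0385 at D3-LIF.

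At Day 4 the clone of Lama1 was at -2.17 ± 0.87 relative to D0 without LIF and -2.15 ± 0.87 with LIF (log2 difference ± SE of the fit, 2 arrays per condition). Sparc was at -2.49 ± 0.97 and -2.37 ± 0.97 for BG064802, and at -2.08 ± 0.89 and -1.99 ± 0.89 for BG065013. The slide 2 clones had smaller errors. Sparc BG072874 was at -1.30 ± 0.52 without LIF and -1.94 ± 0.52 with LIF (adjusted p in limma 0.422 and 0.121). Lamc1 BG072670 was at -1.10 ± 0.56 and -1.96 ± 0.56 (0.422 and 0.132), and Lamb1 BG075439 at -0.83 ± 0.47 and -1.63 ± 0.47 (0.442 and 0.133). Col4a2 was at 0.07 ± 0.30 without LIF and 0.55 ± 0.30 with LIF, Col4a1 BG088953 at -0.41 ± 0.17 and -0.49 ± 0.17, and Col4a1 BG072558 at 0.27 ± 0.24 and 0.29 ± 0.24. The other 5 laminin clones lay between -0.52 and 1.1. With the clones of a gene averaged, Sparc was at -1.96 ± 0.57 without LIF and -2.10 ± 0.57 with LIF at Day 4 (adjusted p in limma 0.398 and 0.134 over 7142 genes), and Lamb1 at 0.19 ± 0.28 and 0.12 ± 0.28. With the Cy3 signs turned Sparc was at 0.93 ± 0.95 and 0.85 ± 0.95, and Lamb1 at -0.44 ± 0.22 and -0.57 ± 0.22.

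These differences rest on the D0 arrays. Without the D0 array in Cy3, Lama1 at D4-LIF was at -0.33, Sparc BG064802 at -1.44 and Sparc BG065013 at -0.26, whereas the slide 2 clones Sparc BG072874, Lamc1 BG072670 and Lamb1 BG075439 were at -1.29, -1.27 and -0.96. With the Cy3 signs turned, D4+LIF minus D0 was at -0.70, -0.95 and -0.72 for these 3 slide 2 clones but at 1.42 and 1.83 for the slide 1 clones of Sparc and at 1.68 for Lama1. Calls appeared when 1 array was left out and its condition rested on the other dye alone. Without the D0 array in Cy5, 4 of the 14 clones passed at D4-LIF (Lama1 and the slide 1 clones of Sparc lower, Lamb1 BG066709 higher), where 4176 of 15360 clones passed. Without the D4+LIF array in Cy3, 5 of the 14 passed at D4+LIF (Sparc BG072874, Lamc1 BG072670, Lamb1 BG075439 and Col4a1 BG088953 lower, Col4a2 higher), where 2885 did. On slide 2 alone, an alternative chosen after seeing the data, 3 of the 8 clones passed at D4+LIF against D0 (the same 3), where 1313 of 7680 clones passed, and with the Cy3 signs turned none did.

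**Figure D3:**
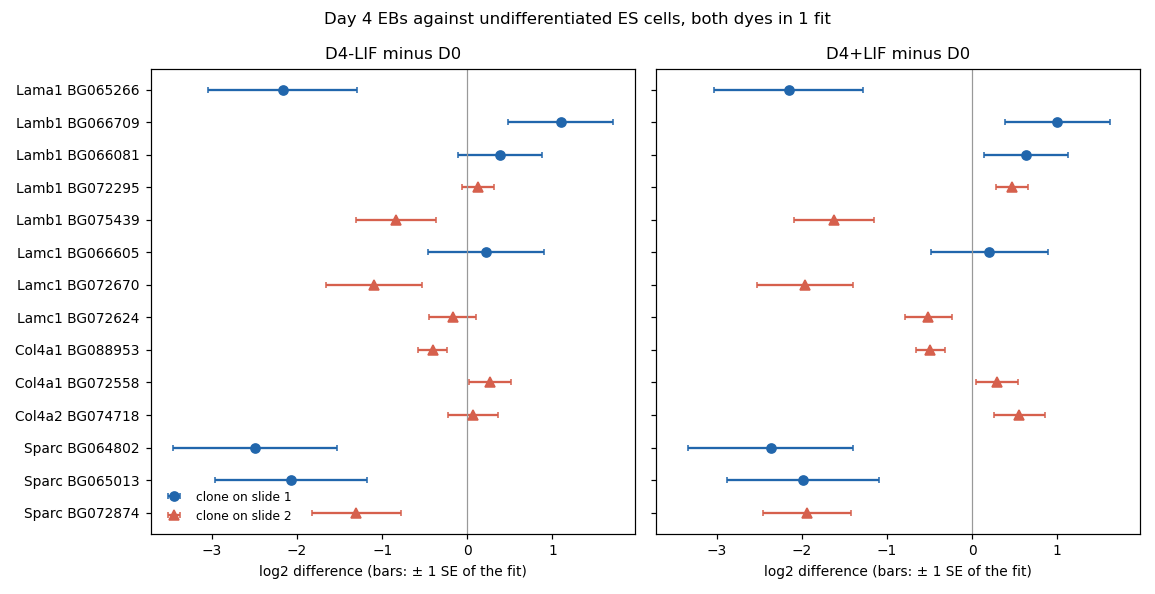
Log2 difference of Day 4 EBs without LIF (left) and with LIF (right) from D0 (horizontal axis, bars ± 1 SE of the fit over both dyes) for each clone; blue circles are clones on slide 1 and orange triangles clones on slide 2. The clones of Lama1 and Sparc, Lamc1 BG072670 and Lamb1 BG075439 lie furthest left, and the bars of Sparc BG064802, Sparc BG065013 and Lama1 are the widest.

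Over D0 to D4, the slope of the condition means per day was below 0 for 9 of the 14 clones without LIF and for 8 with LIF. Of all clones, 51% had a slope above 0 without LIF and 49.7% with LIF. None of the 14 passed the adjusted threshold, as for all clones (0%). Without adjustment p was under 0.05 for 1 clone without LIF (7.66% of all clones), Col4a1 BG088953 at -0.09 ± 0.04 per day, and for 4 with LIF (20.3%), namely Lamc1 BG072670 at -0.40 ± 0.13, Sparc BG072874 at -0.37 ± 0.12, Lamb1 BG075439 at -0.30 ± 0.10 and Col4a1 BG088953 at -0.09 ± 0.04. An F test over the 9 conditions called none of the 14 (0% of all clones), and 0 had an unadjusted p under 0.05 (3.89% of all clones). The smallest F p-value among the 14 was that of Sparc BG064802 (unadjusted 0.0619, adjusted 0.789 in limma). No clone of the 14 was 2-fold or more from the pool in the same direction in all 4 spots of any condition, the fold limit of the study. Few clones of the array were: 0.0391%, 0.542%, 0.521% and 0.0781% at D1 to D4 without LIF, 0.0432%, 0.0326%, 0.137% and 0.0521% with LIF, and 0% at D0. At D2-LIF 10 of the 14 had all 4 spots. The study also compared the conditions with each other, and 2-fold differences between conditions were not counted here.

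The difference between EBs without LIF and with LIF is not taken from D0. The D0 arrays still enter the spread and the dye term of the fit, and so the errors and p-values. Over Days 1 to 4 the mean without LIF minus the mean with LIF passed for none of the 14 clones and for 0% of all clones, and 0 had an unadjusted p under 0.05 (3.39% of all clones). Its median was -0.04 over the 14 clones and -0.03 over all clones. The furthest values were 0.57 ± 0.28 for Lamc1 BG072670, 0.48 ± 0.23 for Lamb1 BG075439 and -0.39 ± 0.26 for Lamb1 BG066081. At Day 4 alone none passed either (0% of all clones), and again 0 of the 14 had an unadjusted p under 0.05 (7.51% of all clones).

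Day by day, the Cy5 arrays of slide 2 were nonetheless ordered by LIF for some clones. Lamb1 BG075439 was higher without LIF on all 4 days, by 0.26 to 1.65, Lamc1 BG072670 by 0.25 to 1.94 and Col4a1 BG088953 by 0.11 to 0.51. Col4a2 was lower without LIF on all 4 days, by -1.15 to -0.02. These are 3 of 8 clones higher, where 9.91% of the clones of that slide were, and 1 of 8 lower, where 11.0% were. Sparc BG072874 was higher without LIF on 3 of 4 days in Cy5. In Cy3 the same order was not seen, with Lamb1 BG075439 higher on 3 of 4 days and Lamc1 BG072670 and Col4a1 BG088953 on 2 of 4, while Col4a2 was higher without LIF on all 4 days, by 0.03 to 0.18. In Cy3, 1 of 8 clones was higher and 0 lower on all 4 days, against 5.46% and 7.98% of the slide. The SD of the slide 2 Cy5 array at Day 4 was 0.60 without LIF and 1.45 with LIF, at Day 2 0.633 and 0.994, at Day 3 0.676 and 0.872, and at Day 1 0.858 and 0.708. By percentile, the order held in Cy5 on Days 1 to 3 and turned at Day 4. Lamc1 BG072670 was at 7.66, 9.8 and 10.2 at D1-LIF to D3-LIF, against 4.88, 4.71 and 6.03 at D1+LIF to D3+LIF, but at 4.3 at D4-LIF, against 4.9 at D4+LIF. Lamb1 BG075439 was at 10.49, 10.55 and 15.57 without LIF, against 7.04, 6.58 and 11.97 with LIF, and at Day 4 at 7.02 without LIF, against 8.17 with LIF. Col4a1 BG088953 was at 50.4, 69.7 and 38.5 without LIF, against 27.3, 32.8 and 31.0 with LIF, and at Day 4 at 30.3 without LIF, against 33.5 with LIF.

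**Figure D4:**
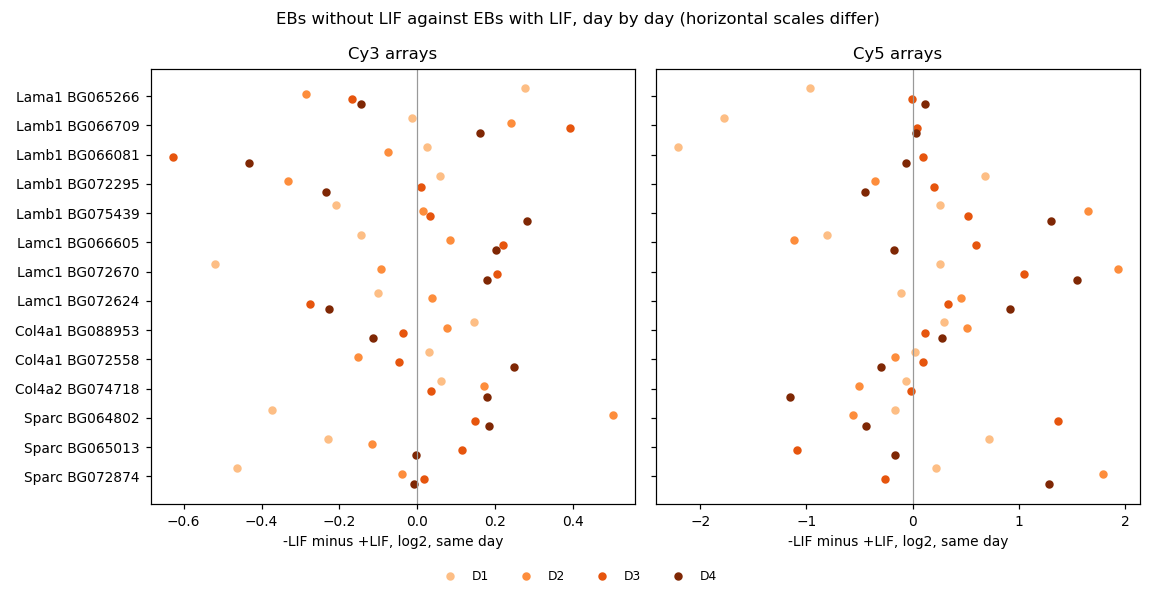
Difference of EBs without LIF minus EBs with LIF at the same day (horizontal axis, log2, scales differ) for each clone on the Cy3 and Cy5 arrays; the shade of a point gives the day, D1 lightest to D4 darkest. In Cy5, Lamb1 BG075439, Lamc1 BG072670 and Col4a1 BG088953 lie right of 0 on all 4 days and Col4a2 left of 0, an order that Cy3 does not show.

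How far clones of 1 gene resembled each other was described by their correlation over the conditions within a dye, over 7 to 9 points that share the pool and the D0 array. The 13 pairs of clones of the same gene had a median of 0.65 in Cy3 (-0.88 to 0.98) and -0.05 in Cy5 (-0.70 to 0.83). Without D0 the median was 0.11 in Cy3 and -0.12 in Cy5. The 78 pairs of clones of different genes had medians of -0.04 in Cy3 and 0.03 in Cy5. The 5 pairs of the same gene on 1 slide had medians of 0.65 in Cy3 and 0.47 in Cy5 (-0.34 and 0.44 without D0). The 8 such pairs across slides had 0.05 and -0.05 (0.29 and -0.13 without D0). Readings of the same gene thus often differed, and the cause was not tested. In Cy5 the pairs across slides had the lower median, but in Cy3 they did so only with D0 included. The 3 Sparc clones correlated at 0.97, 0.97 and 0.95 in Cy3, where the D0 value sets them apart, and at 0.47, 0.10 and 0.18 in Cy5.

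The 5 genes most like the mean of the 10 complete clones, ranked by the lower of the correlations in the 2 dyes over 9 conditions among 5748 clones, were Psmb7, Eif3a, Prmt5, Snrpb2 and Fkbp4. Psmb7 encodes a proteasome subunit, Eif3a a subunit of a translation initiation factor, Prmt5 an arginine methyltransferase, Snrpb2 a spliceosomal protein and Fkbp4 a co-chaperone. The correlations of Psmb7 were 0.96 in Cy3 and 0.91 in Cy5, and those of Fkbp4 0.95 and 0.86. The mean that they follow was 0.68 at D0 and -0.14 to 0.07 in EBs in Cy3, and -0.09 at D0 and -1.08 to -0.21 in EBs in Cy5. It was not scaled by clone, so clones with wide ratios weighed most. Sparc BG064802 was at 3.76 at D0 in Cy3 and at -4.37 at D1-LIF in Cy5, where Lamc1 BG066605 was at -2.53. These clones and all 5 genes were read on slide 1, whereas the other clones in the mean were on slide 2.

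The other genes of the basement membrane were described from lists, each by its median difference from D0 at Day 4 and its 2 clones with the smallest F p-value. All values are log2 differences from D0, where the medians of all clones were 0.01 at D4-LIF and 0.03 at D4+LIF. No clone of any list passed in any comparison in either direction (0%). Of 12 other laminin and collagen IV chains 3 were measured, on 4 clones, with medians of -0.01 at D4-LIF and 0.08 at D4+LIF. The 2 clones of Lama5, the alpha5 chain, were at -1.51 and 1.69 at D4-LIF, opposite directions like those of Lamb1. Of 13 other components 10 genes were measured on 12 clones, with medians of -0.16 and -0.45 and with 5 and 4 clones above 0. Nid1 encodes nidogen-1, the link between the laminin and collagen networks, and its clone BG064933 was at -1.36 and -1.21. The EB values of this clone were -0.26 to 0.65 in Cy3 and -2.27 to -0.43 in Cy5, against 2.11 and -0.13 at D0, so that it was below D0 on every array. The other Nid1 clone, BG063616, was below D0 on 8 of 8 EB arrays in Cy3 and on 5 of 7 in Cy5. Col18a1, the collagen whose fragment is endostatin, was at -0.30 at D4-LIF and -0.74 at D4+LIF on clone CK335124.

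Among receptors (7 of 12 genes, 10 clones) the medians were -0.24 at D4-LIF and -0.70 at D4+LIF, with 4 and 3 clones above 0. Both Itga5 clones lay above 0, BG078765 at 0.70 and 0.81 and BG064497 at 2.26 and 2.14. Itga6, the integrin alpha6 chain of a laminin receptor, was at -0.64 and -1.35, and Dag1, dystroglycan, a laminin receptor, at -0.52 and -0.95 on clone CK334351. Among collagen folding and processing genes (6 of 13 genes, 8 clones) the medians were -0.34 and -0.80, with 1 and 2 clones above 0. P4hb, a subunit of prolyl 4-hydroxylase, was at -0.73 and -1.77 on clone BG073750, and Crtap, a partner in the prolyl 3-hydroxylation of collagen, at -2.10 and -1.86 on clone BG066603. Among proteases and inhibitors (5 of 11 genes, 8 clones) the medians were -0.29 and -0.18, with 3 and 4 clones above 0. The 2 clones of Ctsl, cathepsin L, were at -2.49 and -2.51 at D4-LIF. Other clones lay above D0, such as Mmp2 at 0.27 and 1.01. The 2 clones of Plat went opposite ways, BG069863 at 0.90 and 0.87 and BG069823 at -0.56 and -0.45.

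Without adjustment, limma gave p under 0.05 for 11.6% of all clones at D4-LIF and for 26.3% at D4+LIF. The numbers at D4-LIF and D4+LIF were 2 and 2 of the 4 clones of other chains, 1 and 2 of the 12 of other components, 1 and 3 of the 10 of receptors, 1 and 2 of the 8 of collagen folding and 1 and 3 of the 8 of proteases. With the Cy3 signs turned the medians at D4-LIF and D4+LIF were 0.09 and 0.21 for other chains, 0.03 and -0.21 for other components, 0.02 and -0.45 for receptors, -0.02 and -0.11 for collagen folding and 0.21 and 0.57 for proteases.

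Markers of extraembryonic endoderm were measured beside them, with 0 clones called in any comparison (0%). Gata6 and Gata4 encode transcription factors that define this lineage. They were read on 4 clones, 3 of Gata6 and 1 of Gata4, out of 7 transcription factor genes listed, with medians of 0.42 at D4-LIF and 0.36 at D4+LIF. All 4 clones were above 0 at D4-LIF and 3 at D4+LIF. Gata6 BG068200 was at -0.90 to 0.36 in EBs in Cy3 and 0.08 to 0.56 in Cy5, against -1.58 and 0.00 at D0. Gata4 BG076347 was at -0.17 to 0.16 in EBs in Cy3 and 0.16 to 0.67 in Cy5, against -0.44 and 0.09 at D0. These 2 clones were above D0 on every EB array with a value (14 for Gata6 and 16 for Gata4), as 8.07% of all clones were. The other Gata6 clones were not: BG066721 was above D0 on 8 of 8 arrays in Cy3 and 3 of 6 in Cy5, and BG062986 on 4 of 8 and 6 of 6. The differences at Day 4 were 0.96 without LIF and 0.71 with LIF for Gata6 BG068200, 0.42 and 0.32 for BG066721, 0.43 and -0.05 for BG062986, and 0.17 and 0.41 for Gata4. With the Cy3 signs turned the medians of the 4 clones were -0.25 and -0.11.

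The parietal list (7 of 13 genes, 12 clones) had medians of -0.25 at D4-LIF and -0.25 at D4+LIF, with 6 and 4 clones above 0. Its clones went both ways: Krt8 BG065443, a keratin, was at -1.29 and -1.75, whereas Cited1, a transcriptional coregulator, was at 1.00 and 0.72 and above D0 on all 14 EB arrays with a value. The visceral list (8 of 14 genes, 11 clones) had medians of -0.17 and -0.12, with 3 and 4 clones above 0. There Cited2, another coregulator, was at 2.66 and 2.01 and above D0 on all 15 EB arrays with a value, while Lrp2 BG064854, the endocytic receptor megalin, was at -0.84 and -1.16. With the Cy3 signs turned the medians were 0.22 and 0.20 for the parietal and 0.25 and 0.08 for the visceral list.

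Pluripotency genes, measured as a check on the D0 label, had medians of -1.71 at D4-LIF and -1.67 at D4+LIF over 13 clones of 9 genes, with 1 clone above 0 in each and an unadjusted p under 0.05 for 5 and 8 (11.6% and 26.3% of all clones). Pou5f1 was at -2.00 and -2.26 and Nanog at -2.28 and -2.28. This check rests on the direction of the Cy3 ratios: with their signs turned the medians were 0.93 and 0.79, with 10 and 8 of the 13 clones above 0, Pou5f1 at 0.58 and 0.34 and Nanog at 1.46 and 1.08. In Cy5 alone, which the turn does not touch, Pou5f1 and Nanog were each below D0 on 7 of 8 EB arrays. The Tcl1 clones BG068018 and CK334582 were above D0 on 5 of 6 and 4 of 7 Cy5 arrays, and Zfp42 on 3 of 6. The remaining clones of this list lay below D0 on most Cy5 arrays. Of all clones, 45.9% to 54.7% were below D0 on a given Cy5 array. Fibroblast genes (5 of 8 genes, 10 clones) had medians of 0.04 and 0.11, and Col1a1 was at 0.29 and 0.70 and Dcn BG075532 at 0.18 and 0.70. The clones of mesoderm, trophoblast and neurectoderm genes (2, 4 and 3) had medians of 0.89, -0.28 and -0.70 at D4-LIF. Among them Eomes was at 1.30 and Hand1 at 0.48, Tfap2c at -1.63 and Plac1 BG064121 at -0.46, and Tubb3 at -1.85 and Nes at -0.70. How these lists bear on the laminin, collagen and Sparc values was not tested.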

How the data were processed

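RNA of EBs and of D0 ES cells was read on 2-colour cDNA arrays of 2 slides, each clone spotted 2 times. Per the labels and the methods, the authors scanned the slides, quantified spots with ImaGene and scaled each channel to its mean intensity. What the authors deposited is 1 linear ratio for each spot of an array; background and channel intensities were not used here. The labels state 2 biological sets but not which array belongs to which, so p-values measure only the spread between these arrays. The dye served as the replicate and as the block.

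Spots without a clone at the ends of each print block (3840) were left out, and the copy of a clone lay 160 spots on. 1 ratio of 0 was treated as missing. Ratios were taken to log2, duplicate spots averaged and each slide of each array centred on its median. Whole-array centring was an alternative, since slide medians differed within arrays. Of 15360 clones 9866 had 1 gene symbol, 274 several and 5220 none in the platform annotation; each clone is named by its symbol and EST. Limma (version 3.58.1, R 4.3.3) was fitted by pattern of missing arrays with 9 condition means and a dye term to all clones with a value in every condition, with p-values adjusted after Benjamini-Hochberg. The fit was tested on simulated data in which the D0 arrays had the spread of the EB arrays. That test cannot show how the fit behaves with the unlike spread of the real D0 arrays. The number of arrays limits the precision. Named were all 14 clones, per list the 2 clones with the smallest F p-value where none passed, and the 5 genes most like the mean. Some further clones of the lists were named beside these. The clones, lists and tests were chosen with earlier results of these data known. 0 columns were left unmatched.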

Additional observations from a re-analysis of the deposited data

How the results depend on the processing

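No clone of the 14 was called under the main setting in any comparison. This held under whole-array centring, no centring, equal median absolute deviation, quantile normalization, array quality weights, genes in place of clones, complete clones, clones with close duplicate spots, turned Cy3 signs and the arrays of the compared conditions alone. Without the dye term (no replicate block) 0 were called as well. Under the main setting no clone of the array was called either, so 0 of the 14 says little about these genes. Of all clones, whole-array centring called at most 171 in a comparison, and complete clones gave at most 507. Equal deviation called at most 6, quantiles 2, and genes in place of clones 5. The quality weights were equal for the 2 arrays of each condition. The dyes pair nothing but the labelling, and the 2 arrays of a condition did not deviate together. On slide 2 alone, chosen after seeing the data, 3 clones were called at D4+LIF against D0. Leaving out 1 array gave 0 to 5 calls for D1-LIF, D2+LIF and D4+LIF against D0, 0 to 4 for D4-LIF, D1+LIF, D3+LIF and the slope with LIF, 0 to 3 for D2-LIF, D3-LIF and the slope without LIF, 0 to 2 for the F test, 0 to 1 for D4-LIF against D4+LIF and 0 to 0 for the mean LIF difference. The calls came without the D0 array in Cy5, without the D4+LIF array in Cy3 or without the D1+LIF array in Cy3. A lone array was then assumed to vary like the other conditions, and the cause was not tested.

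The median over the 14 clones at D4-LIF against D0 was -0.0485 without centring and -0.83 over clones with close duplicate spots; leaving out 1 array it was -0.47 to -0.24. At D4+LIF against D0 it was -0.26 with whole-array centring, 0.26 without centring, -0.10 with equal deviation, -0.16 with quantiles, -0.43 by gene, -1.63 with close duplicates, -0.12 with Cy3 turned (-0.13 on slide 2) and -0.76 to -0.28 leaving out 1 array. The slope with LIF was -0.0406, 0.064, -0.0200, -0.0315, -0.0728, -0.305, -0.000989 (-0.0336 on slide 2) and -0.147 to -0.0444 under the same settings in that order, and the slope without LIF -0.0882 to -0.0351 leaving out 1 array. The median LIF difference was -0.19 without centring, 0.11 over complete clones, 0.14 on slide 2 (0.21 with Cy3 turned) and -0.10 to 0.11 leaving out 1 array.

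Limits: channel intensities were not analysed here, so the signal behind each ratio is unknown and no background filter was set. Each condition has 2 arrays, 1 per dye, and all comparisons with D0 share the same 2 D0 arrays. Dye, biological set and array cannot be told apart within a condition. The position of each EST in its transcript was not used here.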
